A study of Mus musculus with 22 samples.

Results

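Potassium channel genes were followed in whole kidney RNA of mice given cisplatin, the adenosine receptor antagonist KW6002 (istradefylline), both, or neither. A gene belonged to the group if its mouse symbol began with Kcn, went on with letters and ended in a number, which takes in pore-forming subunits and the accessory subunits named after them. Of 32858 genes counted, 88 had such a symbol, and the 57 with 10 or more counts in 5 or more of the 22 libraries are described here. The rule named no treatment, but with few counts the filter can favor one: Kcnd2 and Kcnj4 reached 10 counts in 5 libraries only through the cisplatin group, with 1 and 2 such libraries outside it, Kcng4 and Kcnk13 only with libraries from both groups given cisplatin, and Kcnq3 only in the groups not given it. Their values are a description, and they lend no support to a count of changed members. All mice were male C57Bl6/J mice of 8 to 10 weeks. The vehicle group held 5 mice, the KW6002 group 6, the cisplatin group 5 and the co-treated group (cisplatin plus KW6002) 6, with 1 library for each mouse. Cisplatin was given as 6 daily injections of 3 mg/kg, KW6002 at 3 mg/kg per day from day -5 to day 7, and kidneys of cisplatin-treated mice were collected 72 hours after the last cisplatin injection. The comparisons ask which genes a course of cisplatin changes in the kidney and which of them differ when an adenosine receptor is blocked as well.

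Library totals ran from 26471762 to 40510754 counts, and the 57 genes held between 0.247% and 0.343% of them. Levels are CPM, counts scaled to a common library size, after TMM scaling, which is meant to remove differences in depth and in RNA composition. The tissue label was checked against cell type markers: the summed level of 9 proximal tubule markers was 16200 to 17410 CPM in vehicle libraries, 2051 to 3525 CPM with cisplatin and 6773 to 10130 CPM with co-treatment, and skeletal muscle markers stayed at or below 1.04 CPM in every library. Some libraries stood apart. Co-treated replicate 6 held 64.4 CPM of 4 adrenal cortex markers against at most 2.697 CPM in any other library, and 4 fat markers ran from 3.14 CPM in co-treated replicate 2 to 363 CPM in vehicle replicate 2. The mouse numbers in the labels form a 300s and a 500s series: vehicle replicates 1 to 3 and KW6002 replicates 1 to 3 are of the 300s, and all cisplatin and co-treated mice are of the 500s. What the series stands for is not given in the sources used here. Values within the 500s therefore stand beside some of the named changes against vehicle, mainly where a pass or a call differed between the fits. A change printed without such a value is not thereby shown to be the same within the 500s.

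Potassium channels are membrane pores that let potassium ions leave or enter a cell and so set its membrane voltage. Inward rectifiers and two-pore channels carry a resting current, voltage-gated channels open on depolarization, and a further family opens with calcium or sodium inside the cell. Modifier subunits do not form a working pore alone but change the voltage-gated pore they join, and auxiliary subunits alter gating or transport to the membrane. In the tubule, basolateral potassium channels recycle the potassium that the sodium pump brings in, and luminal channels secrete potassium or hold the voltage that drives the reabsorption of other ions.

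The start sites of 5 abundant tubular channel genes are shown first because these genes moved unlike each other: Kcnj16, Kcnj10, Kcnj1 and Kcnk5 were lower after cisplatin and Kcnj15, the most abundant, was not. They were chosen with those changes known. Each sequence is the RefSeq window on GRCm38.p6 from 250 bases before to 50 after the RefSeq start. It is read 5' to 3' on the strand of the gene, and capitals mark matches to the 5 motifs searched on both strands. The Kcnj1 window lies inside the gene as bounded by GENCODE, which starts it at base 32372493 of chromosome 9. The windows lie at chr16:95257308-95257607 (Kcnj15, plus strand), chr11:110967783-110968082 (Kcnj16, plus strand, the most upstream of 4 windows), chr1:172340960-172341259 (Kcnj10, plus strand), chr9:32393735-32394034 (Kcnj1, plus strand) and chr14:20181733-20182032 (Kcnk5, minus strand).
Kcnj15: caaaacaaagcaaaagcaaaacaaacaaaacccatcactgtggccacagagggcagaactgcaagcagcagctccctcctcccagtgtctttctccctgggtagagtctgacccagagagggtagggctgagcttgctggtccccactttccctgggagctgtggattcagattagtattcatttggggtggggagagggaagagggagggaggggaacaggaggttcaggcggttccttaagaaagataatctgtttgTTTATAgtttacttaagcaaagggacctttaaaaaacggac
Kcnj16: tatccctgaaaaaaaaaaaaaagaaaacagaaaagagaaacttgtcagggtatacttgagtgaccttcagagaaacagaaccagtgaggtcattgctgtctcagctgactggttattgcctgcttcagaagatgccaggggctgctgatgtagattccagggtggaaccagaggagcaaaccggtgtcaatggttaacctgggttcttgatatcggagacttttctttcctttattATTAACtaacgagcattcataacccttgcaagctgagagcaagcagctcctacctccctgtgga
Kcnj10: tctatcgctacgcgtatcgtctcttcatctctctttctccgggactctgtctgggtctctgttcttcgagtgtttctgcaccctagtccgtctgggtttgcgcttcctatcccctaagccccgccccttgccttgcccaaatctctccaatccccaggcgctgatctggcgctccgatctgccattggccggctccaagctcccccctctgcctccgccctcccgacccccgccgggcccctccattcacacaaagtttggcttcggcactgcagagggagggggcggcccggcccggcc
Kcnj1: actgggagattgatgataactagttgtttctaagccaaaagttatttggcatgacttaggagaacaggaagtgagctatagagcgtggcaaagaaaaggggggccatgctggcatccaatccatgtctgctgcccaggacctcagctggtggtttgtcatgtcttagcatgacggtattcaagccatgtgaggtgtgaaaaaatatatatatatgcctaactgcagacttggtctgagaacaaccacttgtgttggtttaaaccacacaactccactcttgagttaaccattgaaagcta
Kcnk5: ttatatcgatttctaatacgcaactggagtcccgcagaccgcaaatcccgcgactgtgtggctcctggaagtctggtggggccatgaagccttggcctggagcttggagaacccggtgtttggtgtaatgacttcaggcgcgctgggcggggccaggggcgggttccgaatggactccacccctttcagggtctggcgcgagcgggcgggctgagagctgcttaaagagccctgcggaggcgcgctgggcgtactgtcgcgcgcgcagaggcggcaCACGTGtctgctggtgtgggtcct
The Kcnj16 window held the letters of a half-site for the tubular transcription factor HNF1 (GTTAAT, here on the reverse strand), which 7.10% of all 32851 RefSeq windows hold. The Kcnk5 window held an E-box (CACGTG, 7.15% of all windows), and the Kcnj15 window the letters TATAAA on the reverse strand downstream of the start (13.6% of all windows). The other 2 motifs were an AP-1 site (TGANTCA, 7.81% of all windows) and a CRE (TGACGTCA, 1.79%), and neither occurred in these 5 windows. The windows of Kcnj10 and Kcnk5 were rich in G and C, at 63.7% each, with 21 and 26 CpG dinucleotides, and those of Kcnj15, Kcnj16 and Kcnj1 held 49.7%, 44.3% and 43.7% with 2, 3 and 2 (median of all windows, 52.7% G and C). For 39 of the member genes 57 windows were found. The HNF1 half-site occurred in 3 of these windows (Kcnab1, Kcnj16 and Kcns3) and the AP-1 site in 3 (Kcne3, Kcnip3 and Kcnk2). The E-box occurred in 6 (Kcnab1, Kcne4, Kcnj2, Kcnk5 and Kcnn4), TATAAA in 4 (Kcnab1, Kcnj13, Kcnj15 and Kcnj16) and the CRE in 0. A match describes letters, not binding.

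In vehicle kidneys a few inward rectifiers and two-pore channels made up nearly all of the channel mRNA. Per kb of exon, the scale on which genes can be set side by side, Kcnj15 stood at 280.3 ± 8.66 CPM per kb (SD, n = 5), Kcnj16 at 225 ± 8.26, Kcnj1 at 68.2 ± 10.7, Kcnk5 at 51.2 ± 4.79 and Kcnk1 at 22.2 ± 7.03. Kcnj15 encodes a basolateral inward rectifier of the proximal tubule, Kcnj16 forms basolateral channels together with Kcnj10, Kcnj1 encodes the luminal secretory channel ROMK, Kcnk5 an alkaline-activated channel of the proximal tubule and Kcnk1 a weakly conducting two-pore channel. These 5 genes held 90.6% of the summed level per kb of the 57. The vehicle ranges of Kcnj15 and Kcnj16 did not overlap, and neither did those of Kcnj16 and Kcnj1. Kcnk1 (14.4 to 27.9 CPM per kb) and Kcnj10 (16.8 to 18.8) could not be ordered. Below them, 10 genes lay between 1 and 10 CPM per kb, 32 between 0.1 and 1, and 9 under 0.1. The genes under 0.1 were Kcna2, Kcna6, Kcnk13, Kcnh3, Kcna1, Kcng4, Kcnj4, Kcnq3 and Kcnd2, most of them voltage-gated pores best known from nerve and heart.

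**Figure D1:**
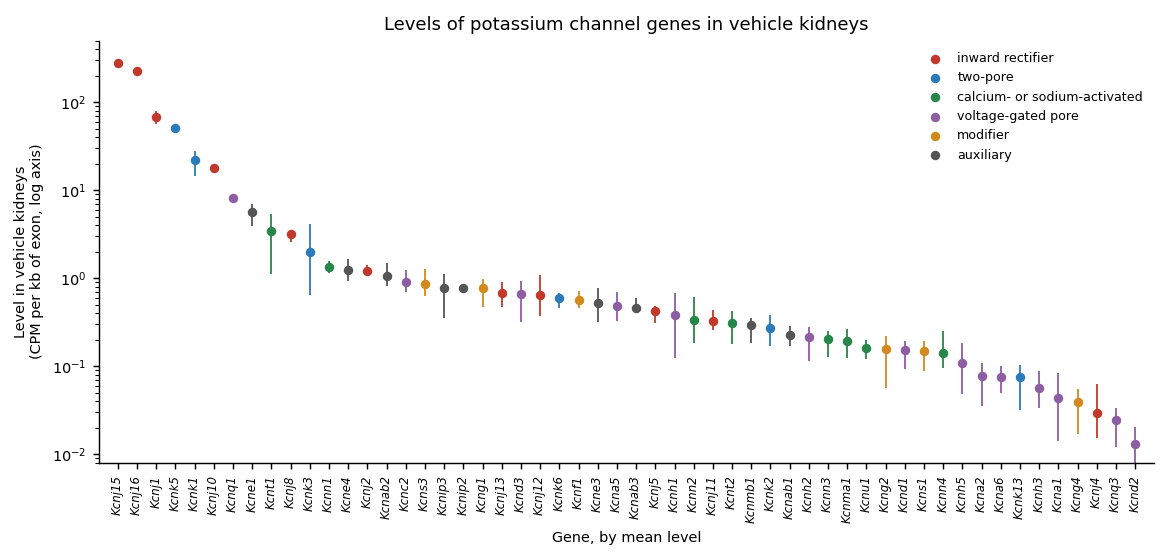
Mean level of 54 potassium channel genes in the 5 vehicle kidneys in CPM per kb of exon on a log axis, with vertical lines for the lowest and highest library and colors for the 6 structural roles. Inward rectifiers and two-pore channels occupy the first 6 places, and the level falls from 280.3 for Kcnj15 to 0.0131 CPM per kb for Kcnd2, whose lowest library is at 0 and off the axis.

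Cisplatin shifted the channel mRNAs of the kidney mostly downward. Kcnj1, Kcnj10, Kcnj16, Kcnk5 and Kcnt1 were lower, and among low-level genes Kcng1 and Kcne3 fell. Kcnip2, Kcnd1 and Kcne4 were higher, and Kcnk1 and, by a small margin, Kcnj15 were higher as well. A gene was called if its edgeR quasi-likelihood test passed 0.01 after adjustment and its log2 fold change, up or down, exceeded 1. By that rule 8 of the 56 members with enough counts to be tested were higher against 12.1% of all 17131 tested genes, and 18 were lower against 12.1%. The 8 include Kcnj4 and Kcnd2 and the 18 include Kcnq3, which the count filter admitted through groups where they were high. At an adjusted p below 0.05 alone, the limit used here for a single gene, 13 were higher (34.6% of all genes) and 26 lower (35.9% of all genes). The median log2 fold change of the 56 was -0.25, beside -0.01 for all genes tested. Under library size scaling the median of all genes moved to 0.20, 11 members were called higher and 15 lower, and at an adjusted p below 0.05 the split was 20 higher and 21 lower. In bulk RNA, fewer cells of a type and less RNA per cell cannot be told apart, and the markers of several nephron segments moved with cisplatin: all 9 proximal tubule, 5 thick ascending limb and 4 distal convoluted tubule markers were lower at an adjusted p below 0.05, with medians of -3.17, -1.53 and -3.54 on the log2 scale. Of the other lists, 2 of 6 principal cell markers were higher and 1 lower, 3 of 5 intercalated cell markers lower, 4 of 5 fibroblast and 4 of 6 smooth muscle and pericyte markers higher, and both injured tubule markers higher, from 5.29 to 7.02 CPM in vehicle to 1126 to 2136 CPM. Podocyte markers were 2 higher and 3 lower of 5, endothelial ones 1 and 2 of 5, macrophage ones 1 and 2 of 5, T cell ones 0 and 3 of 4 tested, B cell ones 0 and 3 of 4, and neutrophil markers 0 and 0 of 3 tested. The part of these cells in the results for channel genes was not tested.

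With KW6002 added to cisplatin some of these mRNAs were higher and others lower than with cisplatin alone. Relative to cisplatin alone, 7 members were called higher (4.65% of all genes) and 6 lower (5.66%), and 16 were higher (28.6% of all genes) and 16 lower (27.2%) at an adjusted p below 0.05. The genes called higher included Kcnt1, Kcns1, Kcng1, Kcnj13, Kcnj10 and Kcnj1, and those called lower included Kcnd1, Kcnip2 and Kcne4. Some of these lay close to the limit of 1. With library size scaling alone 5 were called higher and 6 lower, and Kcnj1 (0.95) and Kcnj10 (0.98) fell short. Of 11 fits that left out 1 library, Kcne4 was called in 5, Kcnj1 in 6, Kcnd1 in 8, Kcnj10 in 9 and Kcnip2 in 10. Co-treated kidneys still differed from vehicle kidneys: 4 members were called higher (5.83% of all genes) and 7 lower (7.59%), and 10 were higher (29.8% of all genes) and 22 lower (29.9%) at an adjusted p below 0.05. With library size scaling alone the called members were 5 and 5, and at an adjusted p below 0.05 they were 11 and 14. The comparisons of cisplatin with vehicle and of co-treatment with cisplatin share the cisplatin libraries, and both comparisons with vehicle share the vehicle libraries, so their values are set side by side below and not counted against each other. Cell type markers moved in this comparison too: against cisplatin alone, 8 of 9 proximal tubule, 4 of 5 thick ascending limb and 3 of 4 distal convoluted tubule markers were higher, with medians of 2.05, 1.44 and 1.69 on the log2 scale, and 3 of 5 intercalated cell markers were higher. Lower were 4 of 5 fibroblast markers (median -1.04), 2 of 6 smooth muscle and pericyte markers, all 4 fat markers (median -2.92) and both injured tubule markers (median -1.88). The summed fat markers stood at 130 to 235 CPM in cisplatin and 3.14 to 84.2 CPM in co-treated libraries, and the injured tubule markers at 1126 to 2136 CPM and 299 to 653 CPM. The part of these cells in the results for channel genes was not tested here either.

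**Figure D2:**
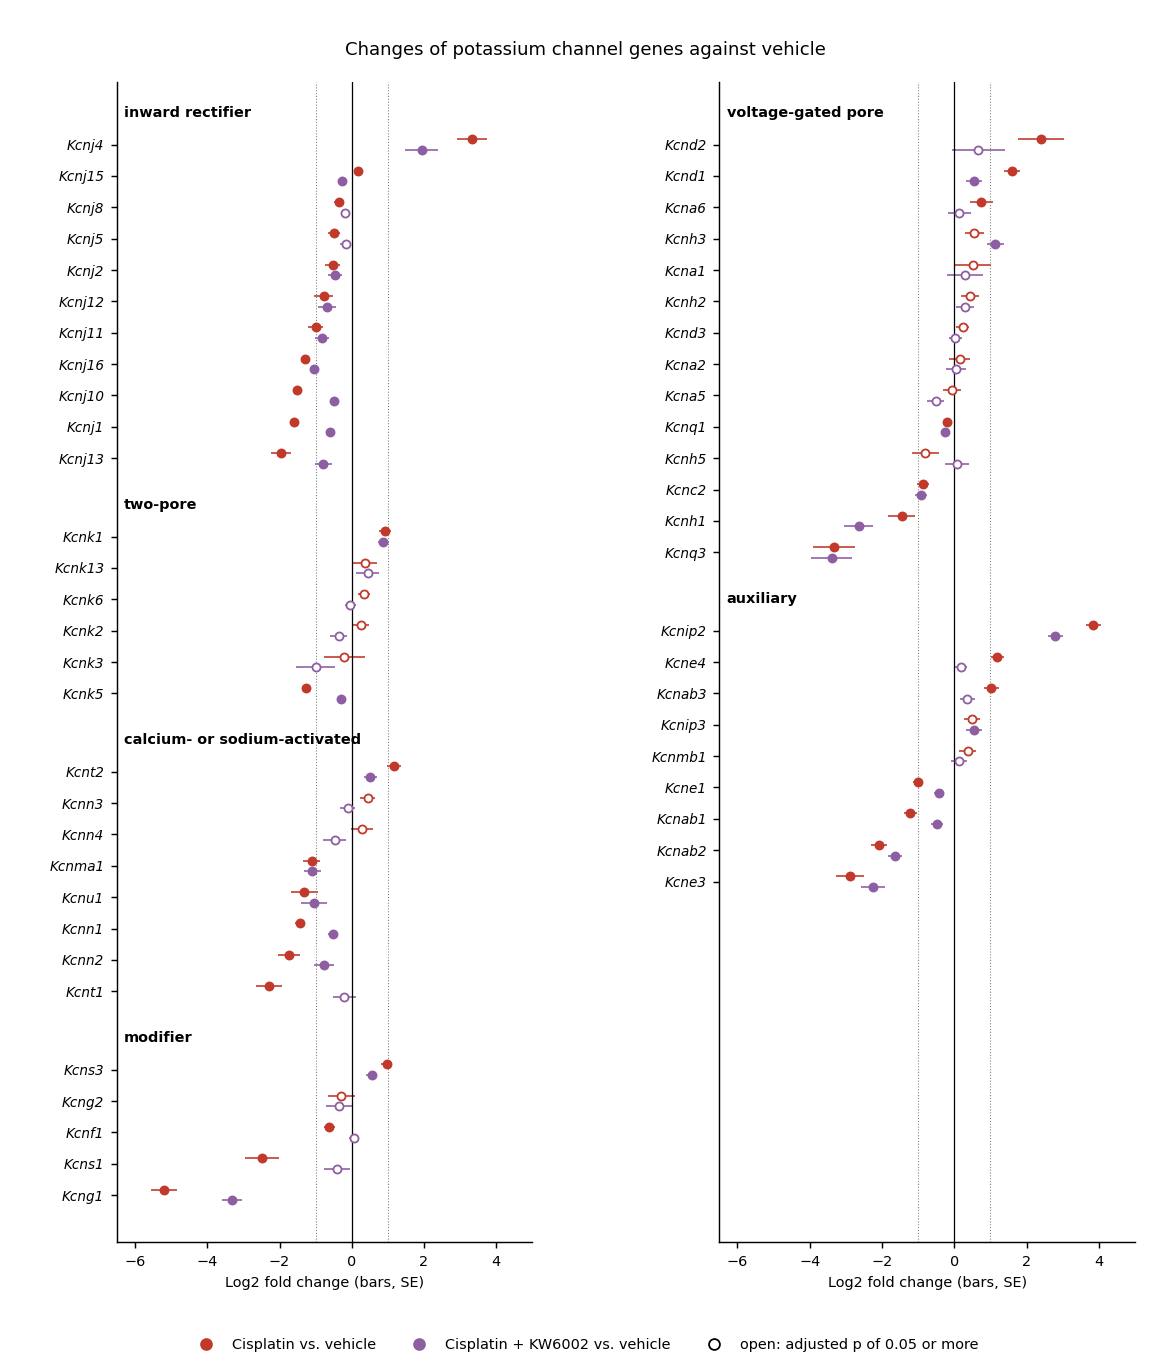
Log2 fold change of 53 tested potassium channel genes against vehicle for cisplatin and for cisplatin plus KW6002, grouped by structural role, with bars for the SE, filled circles for an adjusted p below 0.05 and dotted lines at a change of 1 in either direction. Kcng1 lies furthest to the left in the cisplatin comparison (-5.20) and Kcnip2 furthest to the right (3.85), and for Kcnj1, Kcnj10, Kcnk5 and Kcnt1 the co-treated value lies nearer to 0 than the cisplatin value.

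With KW6002 given alone no change of these genes passed the test. No member was called higher or lower (0.0% of all genes in each direction), and at an adjusted p below 0.05 no member was higher (0.0175% of all genes) or lower (0.0%). Without adjustment, 8 members of 56 and 1930 genes of 17131 had a p below 0.05, and DESeq2 called 0 members. The 2 members of smallest p were Kcne4 and Kcng1. Kcne4 encodes a single-span subunit that damps voltage-gated currents, and it was at 2.49, 2.77, 2.92, 4.44 and 3.94 CPM in the vehicle libraries and at 4.18 to 7.10 CPM (median 5.61) in the KW6002 libraries. Those ranges overlapped in 1 vehicle library, the log2 fold change was 0.75 ± 0.16 (SE), and the adjusted p was 0.0853 by edgeR and 0.00436 by DESeq2. Within the 500s the log2 fold change was 0.47 (adjusted p = 0.525), and with the number series as a covariate the adjusted p was 0.0349.

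Most inward rectifiers were lower with cisplatin after TMM scaling. All 11 were tested, 9 were lower (35.9% of all genes) and 2 higher (34.6%) at an adjusted p below 0.05, and the median was -0.78 on the log2 scale. Of the 9, Kcnj8, Kcnj2, Kcnj5 and Kcnj12 did not pass with library size scaling alone. Kcnj1, the ROMK channel of the thick ascending limb and collecting duct, was at 189, 192, 259.7, 235 and 262 CPM in the vehicle libraries and at 76.5, 87.3, 68.0, 70.9 and 71.2 CPM in the cisplatin libraries. The KW6002 libraries ran from 226 to 242 CPM with a median of 237, and the co-treated ones from 106 to 179.7 CPM with a median of 153. Every cisplatin library was below every other library, and every co-treated library lay between those of cisplatin and vehicle. The log2 fold change was -1.60 ± 0.11 for cisplatin (adjusted p = 1.37e-11), 1.01 ± 0.11 for KW6002 added to cisplatin (adjusted p = 4.83e-08) and -0.59 ± 0.10 for co-treatment against vehicle (adjusted p = 3.8e-05).

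Kcnj10 and Kcnj16 encode the subunits of the basolateral channel of the distal nephron, by which the distal convoluted tubule senses plasma potassium, and both were lower with cisplatin. In vehicle kidneys Kcnj16 was at 225 and Kcnj10 at 17.7 CPM per kb of exon. Which segments the Kcnj16 mRNA came from was not tested. Kcnj10 was at 98.2, 91.0, 101.8, 92.5 and 95.7 CPM in vehicle and at 31.0, 42.5, 29.0, 29.2 and 35.0 CPM in cisplatin libraries. It ran from 55.4 to 72.2 CPM in co-treated libraries (median 71.4), above all of cisplatin and below all of vehicle, with log2 fold changes of -1.52 ± 0.09 for cisplatin (adjusted p = 5.06e-13) and 1.03 ± 0.08 for KW6002 added (adjusted p = 9.61e-10). Kcnj16 was at 864, 906, 838, 904 and 913 CPM in vehicle and at 311, 354, 325, 341 and 458 CPM in cisplatin libraries. Co-treated libraries lay at 394 to 472 CPM (median 409), within reach of the highest cisplatin library, and the change with KW6002 added was 0.25 ± 0.08 (adjusted p = 0.011) after a fall of -1.31 ± 0.08 with cisplatin (adjusted p = 4.13e-12). Against vehicle the co-treated change of Kcnj16 was -1.06 ± 0.08 (adjusted p = 1.94e-10), and that of Kcnj10 -0.49 ± 0.08 (adjusted p = 1.98e-05). Whether the subunits differed from each other in response was not tested. Set against its effect without cisplatin, KW6002 acted differently by 1.03 ± 0.12 for Kcnj10 (adjusted p = 3.72e-07) and 0.44 ± 0.11 for Kcnj16 (adjusted p = 0.00301).

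Kcnj15 went the other way. Its libraries read 1779, 1802, 1713, 1839 and 1716 CPM in vehicle and 1988, 2038, 1868, 1944 and 2211 CPM with cisplatin, while the summed proximal tubule markers were lower in every cisplatin library than in every vehicle library. The groups did not overlap, and the change of 0.18 ± 0.08 had an adjusted p of 0.0389. That p passed 0.05 in 4 of 10 fits that left out 1 library (without cisplatin replicate 5, a change of 0.15 with an adjusted p of 0.103), not in the replicate block (0.0589) and not within the 500s (0.193), and the change was 0.40 with library size scaling alone. Co-treated libraries ran from 1218 to 1671 CPM (median 1460.0), below every cisplatin and every vehicle library, which gave -0.45 ± 0.07 against cisplatin (adjusted p = 2.27e-05) and -0.26 ± 0.07 against vehicle (adjusted p = 0.004, and 0.172 with library size scaling alone). KW6002 libraries, at 1509 to 1882 CPM, overlapped those of vehicle.

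**Figure D3:**
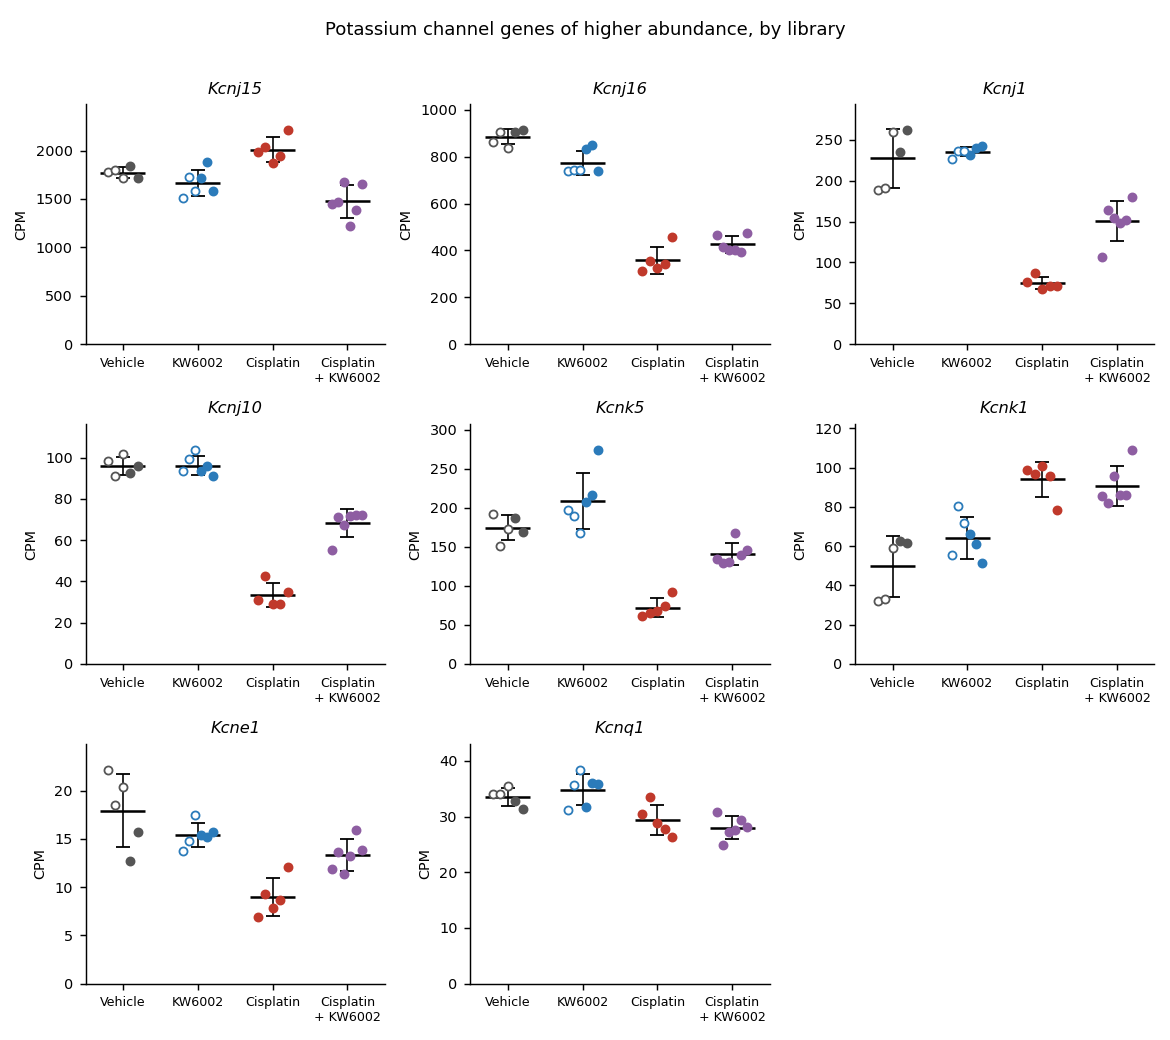
CPM in every library for 8 abundant potassium channel genes, with each group's mean and SD as black lines, each axis starting at 0, and open circles for mice numbered in the 300s. In Kcnj1, Kcnj10 and Kcnk5 the 5 cisplatin libraries lie below all others, and in Kcnj16 the co-treated libraries stay near the cisplatin ones.

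The other inward rectifiers were less abundant. Kcnj13, which in epithelia often sits beside the sodium pump, was at 0.972, 0.602, 0.773, 1.16 and 0.781 CPM in vehicle, at 0.213, 0.276, 0.133, 0.241 and 0.227 CPM in cisplatin and at 0.309 to 0.704 CPM in co-treated libraries. It fell by 1.96 ± 0.27 on the log2 scale with cisplatin (adjusted p = 7.27e-07) and was higher by 1.17 ± 0.27 when KW6002 was added (adjusted p = 0.00074), but 623 of its 1270 exon bases overlap Gigyf2 on the other strand, and whether reads were counted by strand is not stated. Of the pores of the ATP-sensitive channel, Kcnj11 was at 0.944 to 1.61 CPM in vehicle and 0.373 to 0.696 CPM in cisplatin libraries (-0.999 ± 0.21, adjusted p = 0.000182), and Kcnj8, the form of vascular smooth muscle, at 6.62 to 8.86 and 4.36 to 7.75 CPM. The Kcnj8 change of -0.36 ± 0.13 (adjusted p = 0.0191) was -0.25 (adjusted p = 0.064) without cisplatin replicate 5 and -0.14 (adjusted p = 0.375) with library size scaling alone. Kcnj4, a strong rectifier of nerve and heart, one of those admitted through the cisplatin group, had 1, 2, 4, 1 and 1 counts in the vehicle libraries against 30, 26, 26, 19 and 23 in the cisplatin libraries and 5 to 10 in the co-treated ones. The cisplatin libraries lay above all others, and the change was 3.33 ± 0.42 with cisplatin and -1.40 ± 0.30 for KW6002 on top of it. Kcnj2, Kcnj5 and Kcnj12, named after their values were seen, were lower with cisplatin by 0.48 to 0.78 on the log2 scale at an adjusted p below 0.05 and were not called, and none of the 3 changes passed 0.05 with library size scaling alone. Within the 500s Kcnj12 was at -0.23 (adjusted p = 0.519), Kcnj2 at -0.44 (adjusted p = 0.0744) and Kcnj5 at -0.68 (adjusted p = 0.0125), and the Kcnj12 change without vehicle replicate 1 was -0.52 (adjusted p = 0.0613).

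Of 6 two-pore genes, 1 was lower and 1 higher with cisplatin at an adjusted p below 0.05 (35.9% and 34.6% of all genes), and both were tubular. Kcnk5 was at 192, 151, 173, 187 and 169 CPM in vehicle libraries and at 61.1, 65.2, 68.0, 74.1 and 92.3 CPM in cisplatin libraries. Co-treated libraries ran from 129 to 167 CPM (median 137), above all cisplatin libraries and within the vehicle range at their top, and KW6002 libraries from 167 to 274 CPM. The change was -1.27 ± 0.12 with cisplatin (adjusted p = 1.46e-09) and 0.97 ± 0.11 for KW6002 on top of it (adjusted p = 1.85e-07), and what remained against vehicle was -0.31 ± 0.11 (adjusted p = 0.0201; with library size scaling alone -0.15, adjusted p = 0.236; without vehicle replicate 1 -0.27, adjusted p = 0.0548). Kcnk1 was at 32.2, 32.8, 59.2, 62.4 and 61.7 CPM in vehicle and at 98.7, 96.8, 101, 95.6 and 78.6 CPM in cisplatin libraries, without overlap. A KW6002 effect was not detectable here: co-treated libraries ran from 81.9 to 109 CPM, the change with KW6002 added was -0.05 ± 0.15 (adjusted p = 0.793), and that against vehicle 0.87 ± 0.16 (adjusted p = 5.7e-05). The lowest 2 vehicle libraries were both of the 300s, and within the 500s the cisplatin change was 0.59 (adjusted p = 0.000252) in place of 0.92 ± 0.16 (adjusted p = 2.74e-05) and the co-treated change 0.55 (adjusted p = 0.000754).

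Kcnk3, an acid-sensitive two-pore channel that is also expressed in brown fat, varied more within groups than between them. It was at 7.45, 16.3, 3.43, 9.33 and 2.54 CPM in vehicle, 2.98, 6.18, 7.59, 7.52 and 9.46 CPM in cisplatin and 0.470 to 9.37 CPM in co-treated libraries, and no comparison passed the test. The summed fat markers matched it at the extremes and not throughout: vehicle replicate 2, its highest library, held 363 CPM of them, and co-treated replicate 2, its lowest, held 3.14 CPM, the extremes of all 22 libraries in both. Within the co-treated group the highest Kcnk3 library was also the one with most fat marker RNA (84.2 CPM). Cisplatin libraries held 130 to 235 CPM of fat markers, above the vehicle median of 66.3 CPM, at Kcnk3 levels inside the vehicle range, and cisplatin replicate 1, with 139 CPM of them, had the lowest Kcnk3 of its group. The parts of fat RNA, and of the adrenal RNA in co-treated replicate 6 (6.10 CPM of Kcnk3), in the Kcnk3 level were not tested. Without co-treated replicate 1 the change against vehicle was -1.48 (adjusted p = 0.0249) in place of -1.004 ± 0.55 (adjusted p = 0.118). Kcnk13, a two-pore channel known from microglia, lay between 0.0976 and 0.480 CPM in every library, and its groups overlapped in every comparison.

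All 8 genes grouped by symbol as calcium- or sodium-activated were members and tested. With cisplatin 5 were called lower and 1 higher (12.1% of all genes each), a median of -1.22. The 5 include Kcnu1, which is in the group by its symbol and is described below as alkaline-activated. Kcnt1, a pore opened by sodium inside the cell, read 10.49, 16.4, 34.8, 49.9 and 51.0 CPM in vehicle and 4.71, 11.3, 5.01, 6.69 and 5.21 CPM in cisplatin libraries. Co-treated libraries ran from 22.1 to 37.7 CPM (median 26.6) and were all above all cisplatin libraries, whereas 1 cisplatin library lay above the lowest vehicle library. The change was -2.30 ± 0.36 with cisplatin (adjusted p = 5.68e-06) and 2.10 ± 0.35 for KW6002 on top of it (adjusted p = 2.49e-05), and the KW6002 effect differed with and without cisplatin by 1.80 ± 0.47 (adjusted p = 0.00339). Against vehicle the co-treated change was -0.20 ± 0.32 (adjusted p = 0.6), but within the 500s, where the vehicle libraries were the highest 2, it was -0.84 (adjusted p = 0.0145). Its relative Kcnt2 was the one called higher, at 1.24 to 2.93 CPM in vehicle, 4.15 to 5.62 CPM in cisplatin and 2.15 to 3.39 CPM in co-treated libraries. Cisplatin libraries of Kcnt2 overlapped neither other group, with 1.16 ± 0.19 for cisplatin (adjusted p = 1.31e-05; below the log2 limit of 1 within the 500s) and -0.64 ± 0.18 for KW6002 on top of it (adjusted p = 0.00397).

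Kcnma1, the pore of the large-conductance BK channel through which flow-dependent potassium secretion runs, was at 4.28, 2.85, 4.50, 2.68 and 2.08 CPM in vehicle, at 1.49, 1.38, 1.81, 1.04 and 1.84 CPM in cisplatin and at 0.940 to 2.30 CPM in co-treated libraries. Cisplatin and vehicle did not overlap (-1.12 ± 0.24, adjusted p = 0.000251), and a KW6002 effect was not detectable (0.02 ± 0.24, adjusted p = 0.938). Within the 500s the cisplatin change was -0.66 (adjusted p = 0.0541) and the co-treated change against vehicle -0.63 (adjusted p = 0.0733, in place of -1.09 ± 0.23 and 0.000289). Kcnn1 and Kcnn2, small-conductance channels named after their values were seen, were lower with cisplatin by 1.44 ± 0.13 and 1.74 ± 0.30 on the log2 scale (adjusted p = 1.96e-09 and 2.34e-05), and Kcnu1, an alkaline-activated channel known from sperm, by 1.32 ± 0.38 (adjusted p = 0.00364; within the 500s an adjusted p of 0.0189, which ends the call). Kcnn3, also named after its values were seen, did not pass with cisplatin (0.44 ± 0.21, adjusted p = 0.0656). Kcnn4, the intermediate-conductance channel of red and white blood cells, was at 0.488 to 1.28 CPM in vehicle and 0.639 to 1.25 CPM in cisplatin libraries (0.29 ± 0.31, adjusted p = 0.416), ranges that overlapped. Its change of -0.76 ± 0.30 with KW6002 added (adjusted p = 0.0351) passed 0.05 in 5 of 11 fits that left out 1 library, and without cisplatin replicate 5 it was -0.60 (adjusted p = 0.11).

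Of 17 voltage-gated pores, 5 were higher (34.6% of all genes) and 4 lower (35.9%) with cisplatin at an adjusted p below 0.05, with a median of 0.23, and 8 did not pass. The A-type pore Kcnd1 and the auxiliary gene Kcnip2, whose calcium-binding protein joins such pores and brings them to the membrane, were called higher. Kcnd3, an A-type pore named after its values were seen and the one of highest level per kb in vehicle, did not pass with cisplatin (0.23 ± 0.18, adjusted p = 0.255; 0.45 with an adjusted p of 0.0275 with library size scaling alone, and -0.15 with 0.411 within the 500s). Kcnip2 was at 2.92, 2.69, 2.59, 2.40 and 2.83 CPM in vehicle and at 38.5, 55.96, 33.5, 33.1 and 33.0 CPM in cisplatin libraries, and co-treated libraries held 17.5 to 19.98 CPM with a median of 18.9. No 2 of these 3 groups overlapped, and KW6002 libraries ran from 1.61 to 5.20 CPM. The change was 3.85 ± 0.22 with cisplatin (adjusted p = 3.45e-13), -1.06 ± 0.17 with KW6002 added (adjusted p = 1.97e-05) and 2.80 ± 0.21 against vehicle with co-treatment (adjusted p = 1.7e-10). Kcnd1 was at 0.907, 0.722, 0.941, 0.493 and 1.01 CPM in vehicle, 1.68, 3.11, 2.61, 3.42 and 1.67 CPM in cisplatin and 0.831 to 1.54 CPM in co-treated libraries. Its cisplatin libraries were above all others, with 1.61 ± 0.22 for cisplatin (adjusted p = 9.53e-07) and -1.06 ± 0.20 for KW6002 on top of it (adjusted p = 0.000111). Kcnd2, an A-type pore that passed the count filter through the cisplatin libraries, held at most 3 counts in any vehicle library (10 in all) and 10 to 22 in the cisplatin libraries (71 in all), a ratio of 5.48 with a 95% interval of 2.81 to 11.9 that covers counting error only. Within the 500s its adjusted p was 0.0337, which ends the call. A-type pores are best known from neurons. The summed level of 4 neuron markers was 3.73 to 7.46 CPM in vehicle and 9.09 to 11.3 CPM in cisplatin libraries, 1 of the 2 with enough counts was higher, and their part in the result was not tested.

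Kcnq1 joins Kcne1 in a slow potassium channel that is also present in the proximal tubule. Kcnq1 libraries of vehicle mice held 31.3 to 35.5 CPM, with cisplatin 26.3 to 33.5 CPM and co-treated 25.0 to 30.8 CPM. The cisplatin change of -0.19 ± 0.07 (adjusted p = 0.0171) was 0.03 (adjusted p = 0.743) with library size scaling alone, -0.13 (adjusted p = 0.222) within the 500s and -0.15 (adjusted p = 0.0557) without cisplatin replicate 5. Kcne1 went from 22.2, 18.6, 20.4, 12.7 and 15.7 CPM in vehicle to 6.93, 9.29, 7.89, 8.64 and 12.1 CPM with cisplatin and 11.4 to 15.9 CPM with co-treatment. Vehicle and cisplatin did not overlap, with -1.001 ± 0.14 for cisplatin (adjusted p = 1.06e-06), just past the limit for a call (-0.67 within the 500s and -0.79 with library size scaling alone, both short of it), and 0.58 ± 0.13 with KW6002 added (adjusted p = 0.000894). The co-treated change against vehicle, -0.43 ± 0.13 (adjusted p = 0.00768), was -0.09 (adjusted p = 0.654) within the 500s.

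Kcnq3, a pore of nerve cells, held 9, 9, 14, 5 and 15 counts in vehicle libraries, 0, 0, 4, 2 and 0 in cisplatin libraries and 0 to 2 in co-treated libraries, which gave -3.34 ± 0.58 for cisplatin and, over summed counts, a vehicle level 11.8 times the co-treated one with a 95% interval of 5.07 to 33.6 from counting error alone. Kcnc2 and Kcna6, named after their values were seen, changed by -0.86 ± 0.17 (adjusted p = 7.77e-05) and 0.75 ± 0.31 (adjusted p = 0.0387) with cisplatin. Within the 500s Kcnc2 was at -0.48 (adjusted p = 0.0215) and Kcna6 at 0.68 (adjusted p = 0.185), and Kcna6 passed 0.05 in 4 of 10 fits that left out 1 library (without vehicle replicate 1, 0.62 with an adjusted p of 0.101). Kcnh3, also named after its values were seen, was called higher in co-treated kidneys against vehicle (1.14 ± 0.24, adjusted p = 0.000318). Kcna2, Kcna5, Kcnh2 and Kcnh5 passed in neither comparison with vehicle, though within the 500s Kcnh2 (0.94, adjusted p = 0.0232) and Kcnh5 (-1.13, adjusted p = 0.0496) passed with cisplatin. Kcna1, the pore that holds the luminal voltage for magnesium uptake in the distal convoluted tubule, was at 2 to 17 counts in every library and passed no test. Kcnh1, named after its values were seen, was called lower with cisplatin (-1.46 ± 0.38, adjusted p = 0.00167), and its vehicle libraries held 4.99, 4.81 and 1.95 CPM in the 300s and 1.34 and 0.911 CPM in the 500s. Within the 500s the cisplatin change was -0.15 (adjusted p = 0.718), and the co-treated change against vehicle was -1.33 (adjusted p = 0.00507) in place of -2.64 ± 0.40 (adjusted p = 5.48e-06).

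Of 9 auxiliary genes 3 were higher (34.6% of all genes) and 4 lower (35.9%) with cisplatin at an adjusted p below 0.05, and all 7 were also called. The beta subunits of voltage-gated pores, named after their values were seen, included Kcnab3 (1.02 ± 0.21, adjusted p = 0.000177), Kcnab1 (-1.22 ± 0.18, adjusted p = 2.3e-06; -0.84 within the 500s, which ends the call) and Kcnab2 (-2.08 ± 0.22, adjusted p = 1.77e-08), and Kcnab2 was also lower with co-treatment than with vehicle (-1.64 ± 0.21, adjusted p = 4.64e-07). Kcnmb1, the BK subunit of smooth muscle and also named after its values were seen, did not pass (0.37 ± 0.24, adjusted p = 0.168). Kcne4 rose from the vehicle values given above to 8.50, 7.99, 8.42, 8.00 and 5.04 CPM with cisplatin, above every vehicle library, and stood at 3.04 to 4.33 CPM with co-treatment, within the vehicle range. The change was 1.20 ± 0.17 with cisplatin (adjusted p = 1.28e-06; 0.85 within the 500s), -1.002 ± 0.16 for KW6002 on top of it (adjusted p = 1.14e-05) and 0.19 ± 0.17 against vehicle with co-treatment (adjusted p = 0.324). The KW6002 effects with and without cisplatin differed by -1.75 ± 0.23 (adjusted p = 2.35e-06). Kcne3, a subunit that holds Kcnq1 channels open, went from 0.907, 0.682, 0.571, 1.37 and 1.11 CPM in vehicle to 0.0799, 0.0754, 0.160, 0.134 and 0.170 CPM with cisplatin (-2.88 ± 0.38, adjusted p = 5.4e-07). Co-treated libraries, at 0.0686 to 0.288 CPM, overlapped cisplatin (0.63 ± 0.44, adjusted p = 0.234) and lay below all vehicle libraries (-2.25 ± 0.34, adjusted p = 7.09e-06). Kcnip3, whose protein also binds DNA in its calcium-free form, was at 1.24 to 4.003 CPM in vehicle and 3.01 to 5.41 CPM in cisplatin libraries (0.50 ± 0.23, adjusted p = 0.0579). Its co-treated change of 0.54 ± 0.22 (adjusted p = 0.0395) passed in 5 of 11 fits that left out 1 library (without vehicle replicate 2, 0.36 with an adjusted p of 0.115) and was 0.11 (adjusted p = 0.663) within the 500s.

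Of 5 modifier genes tested, 1 was higher (34.6% of all genes) and 3 lower (35.9%) with cisplatin at an adjusted p below 0.05, and 2, Kcng1 and Kcns1, were called lower. Both encode subunits that join voltage-gated pores. Kcng1 showed the largest fall of any member: 65, 70, 130, 116 and 122 counts in vehicle libraries and 5, 3, 2, 3 and 4 counts in cisplatin libraries, or 3.47 ± 0.967 CPM (SD, n = 5) against 0.0911 ± 0.0319 CPM (SD, n = 5). Co-treated libraries ran from 0.203 to 0.487 CPM, above all cisplatin and below all vehicle libraries, and KW6002 libraries from 3.44 to 8.39 CPM. The change was -5.20 ± 0.36 with cisplatin (adjusted p = 1.06e-11), 1.88 ± 0.44 with KW6002 added (adjusted p = 0.000853) and -3.31 ± 0.28 against vehicle with co-treatment (adjusted p = 1.06e-09). Kcns1 was at 0.291, 0.241, 0.504, 0.528 and 0.456 CPM in vehicle, 0.107, 0.0754, 0.0533, 0.0803 and 0.0283 CPM in cisplatin and 0.0959 to 0.652 CPM in co-treated libraries. Cisplatin did not overlap vehicle (-2.49 ± 0.47, adjusted p = 5.93e-05) and overlapped co-treatment in 1 library (2.07 ± 0.47 with KW6002 added, adjusted p = 0.000672). Kcns3, Kcnf1 and Kcng2 were named after their values were seen. Kcns3 and Kcnf1 changed by 0.97 ± 0.16 (adjusted p = 8.34e-06; 1.24 within the 500s, past the limit for a call) and -0.62 ± 0.16 (adjusted p = 0.00111) with cisplatin, and Kcng2 did not pass (-0.29 ± 0.37, adjusted p = 0.495). Kcng4, the member that was not tested, held 1 to 23 counts, the most in co-treated replicate 6, the library with adrenal cortex RNA. The part of adrenal RNA in the level of this or any other member was not tested.

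**Figure D4:**
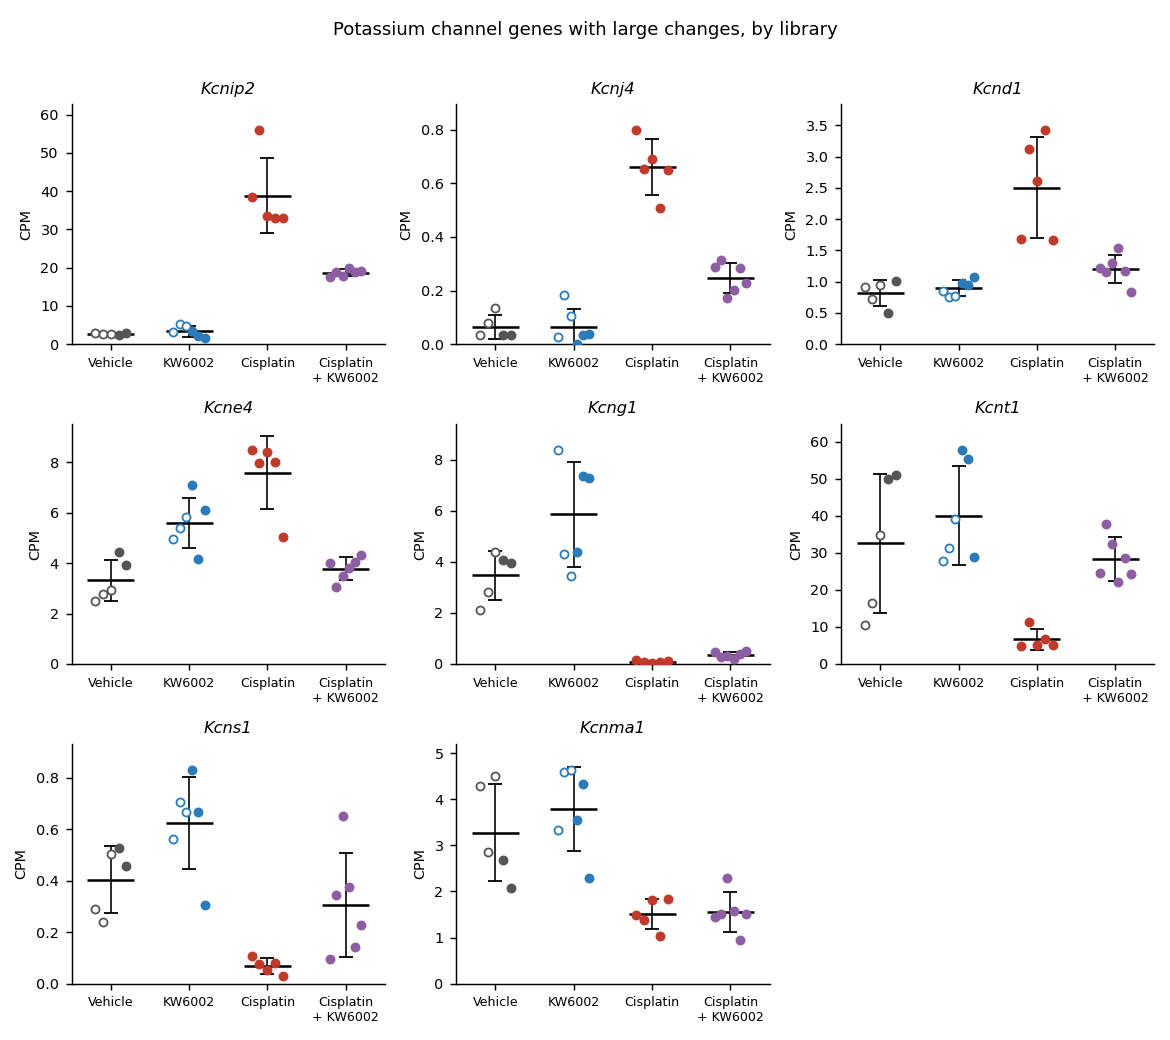
CPM in every library for 8 potassium channel genes with large changes, with each group's mean and SD as black lines, each axis starting at 0, and open circles for mice numbered in the 300s. Kcnip2, Kcnj4, Kcnd1 and Kcne4 are highest with cisplatin, Kcng1, Kcnt1 and Kcns1 lowest, and Kcnma1 is as low with co-treatment as with cisplatin.

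Whether KW6002 acted differently in cisplatin-treated and untreated kidneys was tested as the difference between its effects. The difference was called higher for 3 members (4.24% of all genes), among them Kcnt1 and Kcnj10, and lower for 4 (4.33%), Kcne4, Kcnip2, Kcnd1 and Kcnt2, and with library size scaling alone for 2 and 5. For Kcnd1 it was -1.18 ± 0.30 (adjusted p = 0.00341), for Kcnip2 -1.39 ± 0.28 (adjusted p = 0.000383) and for Kcnt2 -1.02 ± 0.26 (adjusted p = 0.003). Within the 500s these were -1.45 (adjusted p = 0.0183), -0.89 (adjusted p = 0.0413) and -0.92 (adjusted p = 0.0114), and none of the 3 was called. For the tubular channels Kcnj1 and Kcnk5 it was 0.96 ± 0.15 (adjusted p = 2.02e-05) and 0.71 ± 0.16 (adjusted p = 0.000825), and for Kcnk1 -0.42 ± 0.22 (adjusted p = 0.123).

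**Figure D5:**
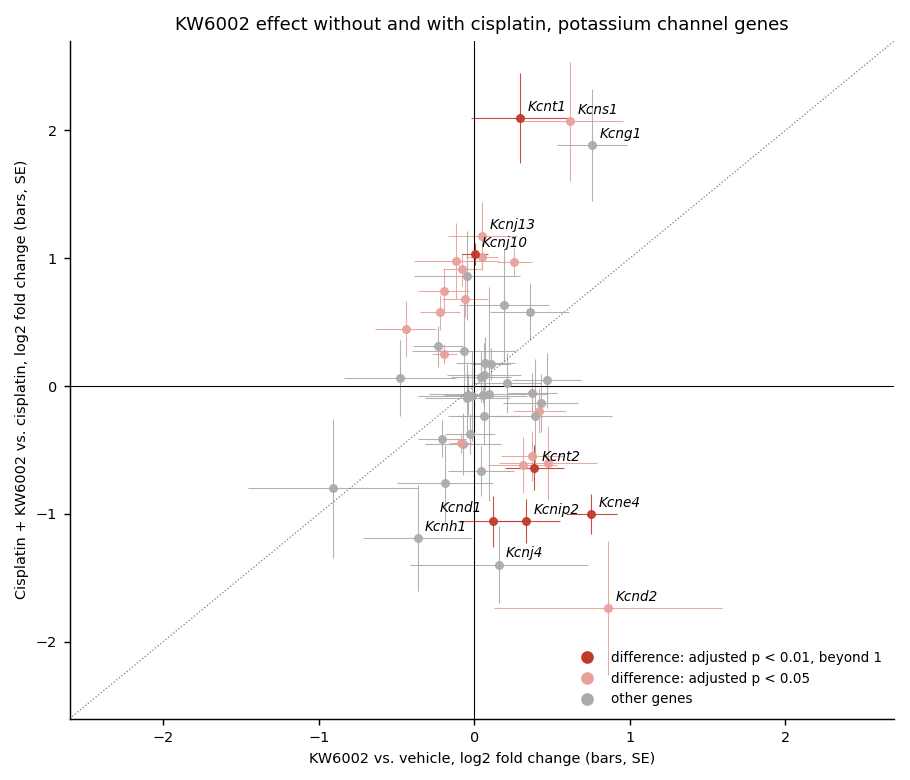
Log2 fold change of 53 tested genes with KW6002 alone against vehicle (horizontal) and with KW6002 added to cisplatin against cisplatin (vertical), with bars for the SE and a dotted line where both effects would be equal. The 4 groups are separate mice, and dark red marks the 6 genes whose effects differed at an adjusted p below 0.01 and by more than 1, from Kcnt1 at the top (2.10) to Kcnip2 and Kcnd1 (-1.06 each).

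Genes outside the symbol rule that work with these channels were followed as fixed lists. Of 13 channel partners, 9 were tested, and with cisplatin 3 were higher and 4 lower at an adjusted p below 0.05 (34.6% and 35.9% of all genes). Abcc9, the sulfonylurea receptor that pairs with Kcnj8 and Kcnj11, fell from 35.0 ± 2.43 CPM in vehicle (SD, n = 5) to 17.5 ± 1.07 CPM with cisplatin (SD, n = 5; -1.002 ± 0.11, adjusted p = 5.38e-08). Lrrc26 and Lrrc52, subunits of BK-type channels, went apart: Lrrc26 was at 0.121 CPM in vehicle and 2.48 CPM with cisplatin (4.35 ± 0.54, adjusted p = 2.08e-07), and Lrrc52 at 1.96 and 0.0691 CPM (-4.75 ± 0.30, adjusted p = 3.27e-12). Of 26 genes of renal potassium handling, all tested, 5 were higher (34.6% of all genes) and 16 lower (35.9%) with cisplatin at an adjusted p below 0.05, with a median of -0.62. Slc12a3, the sodium chloride cotransporter upstream of potassium secretion, fell by 4.60 ± 0.23 on the log2 scale (adjusted p = 5.22e-14), and Slc12a1, the cotransporter of the thick ascending limb, by 1.60 ± 0.23 (adjusted p = 1.88e-06). Sgk1, an aldosterone-induced kinase, was higher by 1.75 ± 0.25 (adjusted p = 1.72e-06). With KW6002 added to cisplatin 13 of the 26 were higher (28.6% of all genes) and 3 lower (27.2%), and with KW6002 alone none passed.

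Some members lie side by side in the genome, by the gene bounds of GENCODE. Kcnj16 and Kcnj2 are 38195 bases apart on chromosome 11 in the same orientation, with cisplatin changes of -1.31 and -0.53, and Kcnj5 and Kcnj1 are 28142 bases apart on chromosome 9 on opposite strands, with -0.48 and -1.60. Kcna5, Kcna1 and Kcna6 follow each other on chromosome 6 and had changes of -0.06, 0.53 and 0.75. Whether neighbors differed in change was not tested. The 31 genes of the rule that were not members held at most 13 counts in any library, and 12 of them are voltage-gated pores and 6 two-pore channels.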

How the data were processed

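RNA-Seq of poly(A) RNA from 22 mouse kidneys was analysed as counts per gene, which the authors deposited raw. Per the labels, libraries were made with a stranded kit, reads were aligned with STAR to mm10 and counted with HTSeq 0.6.1p1. Whether counting used strand is not given in the sources used here, so antisense overlaps are given as uncertain. The table's 66 further columns were not matched to samples and were not used. Symbols, exon lengths and coordinates came from GENCODE, and 4 annotated symbols of the rule were not analysed here.

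Counts were fitted across all 22 libraries with edgeR 4.0.16 in R 4.3.3 (TMM scaling, filterByExpr, quasi-likelihood F test, 1 mean per group), with Benjamini-Hochberg adjustment over 17131 genes. Mean ± SD is over mice, and log2 fold changes are ± SE. On simulated data of 17131 genes, 199 of 200 changed genes were recovered with 1 false call, for cisplatin against vehicle. The changed genes all lay above 1 CPM in vehicle, and their log2 changes were all well past the limit of 1 for a call. In the mouse data 5930 genes were higher and 6155 lower in that comparison at an adjusted p below 0.05. Recovery with that many altered genes, at lower levels or near the limit for a call was not tested. DESeq2 1.42.0, other scalings and filters, the mouse number series and leaving out each library were tried as alternatives. Intervals on summed counts are exact binomial and cover counting error only.

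Members and gene lists were chosen with earlier results of these data known. Genes named with values were kidney channels of textbook role and the called members with the largest changes, and any other channel gene named with a value was chosen after its values were seen. Kcna10 and Kcnmb4, on that list, were not members. Protein sequences were not used here. Some genes of the rule and lists are counted but not reported singly here or drawn. Replicate numbers did not pair mice: same-numbered libraries deviated together with a median r of 0.00846 (31 pairs, -0.175 to 0.405).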

Additional observations from a re-analysis of the deposited data

Results flagged for a closer look

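Single libraries stood apart from their group in 8 of 112 sets of libraries checked, where chance flags about 1 in 20, by the gap to the nearest library relative to the range of the group. Cisplatin replicate 5 did so for Kcne4 (5.04 CPM, nearest 7.99), Kcnj16 (458 CPM, nearest 354) and Kcnk1 (78.6 CPM, nearest 95.6). Cisplatin replicate 2 was high in Kcnip2 (55.96 CPM, nearest 38.5), vehicle replicate 2 in Kcnn4 (1.28 CPM, nearest 0.672), and co-treated replicate 1 low in Kcnj10 (55.4 CPM, nearest 67.1). Among KW6002 libraries, replicate 6 was high in Kcnd2 (0.498 CPM, nearest 0.141), and replicate 5 in Kcnj13 (1.34 CPM, nearest 0.870).

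The effect of KW6002 differed between cisplatin-treated and untreated kidneys, by the edgeR test of that difference, in the following genes. On the log2 scale it was greater with cisplatin for Kcnt1 by 1.80 (adjusted p = 0.00339) and Kcnj10 by 1.03 (adjusted p = 3.72e-07). The difference was -1.75 for Kcne4 (adjusted p = 2.35e-06), -1.39 for Kcnip2 (adjusted p = 0.000383), -1.18 for Kcnd1 (adjusted p = 0.00341) and -1.02 for Kcnt2 (adjusted p = 0.003).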

How the results depend on the processing

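Counts of called genes depended most on the threshold. At an adjusted p below 0.05 with no fold limit, cisplatin against vehicle gave 13 higher and 26 lower, and co-treatment against cisplatin 16 and 16. Co-treatment against vehicle gave 10 and 22, and the difference of KW6002 effects 14 and 11. For that difference, 29 members of 56 and 8562 genes of 17131 had an unadjusted edgeR p below 0.05, so many genes of any kind passed. Tested against a log2 fold change of 1, the counts in the same order were 3 higher and 11 lower, 0 and 0, 1 higher, and 0 and 0. With at least 10 counts in every library, which leaves fewer genes tested, cisplatin gave 10 lower, co-treatment against cisplatin 3 and 3, and against vehicle 2 and 3. Where only 1 direction is given for a setting, the other is not printed and is not thereby 0. Within the 500s the difference gave 5 and 2, and the cause was not tested. Leaving out 1 library gave 7 to 10 higher and 16 to 19 lower for cisplatin, 5 to 8 and 3 to 6 for co-treatment against cisplatin, 0 to 0 in both directions for KW6002, 2 to 4 and 6 to 8 for co-treatment against vehicle, and 2 to 6 and 3 to 7 for the difference. For 31 genes of the naming rule in 5 comparisons, leaving out 1 library kept direction and side of the threshold in 1911 of 2013 values, and the other settings in 1244 of 1316, and in a further 47 and 27 the sign changed with neither value past the threshold. Kcnq1 with cisplatin turned to 0.02716 with library size scaling alone, where the median of all genes in that comparison was 0.20. For co-treatment against cisplatin the same setting gave a median of -0.05 for all genes. Which scaling is nearer to the RNA content of the kidneys was not tested. With the replicate block the counts were 8 and 19 for cisplatin, 6 and 5 for co-treatment against cisplatin and 3 and 7 against vehicle. Genes with few counts, such as Kcnd2 and Kcnq3, are limited by depth.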
